A study of Mus musculus with 8 samples.

Results

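Interferon-stimulated genes and the nucleic acid sensors that can switch them on were followed in newborn mouse epidermis in which a mutant mitochondrial DNA helicase was expressed. The 33 genes were listed by name, with older names accepted, and a gene counted as measured where a probe set named it and no other gene. This held for 30 of the 33, among 22180 genes measured in all. Oas1a shares its probe set with Oas1g and Gbp2 shares its own with Gbp2b, and neither these nor Ifi44 was analysed here. Mb21d1, the gene of cGAS, is named Cgas in the probe annotation, and Tmem173, the gene of STING, is named Sting1. The measured genes fall into 5 sensors, 3 adaptors and kinases, 5 transcription factors and 17 effectors.

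Epidermal RNA of C57BL/6J newborns (postnatal day 0) was hybridised to 8 arrays, 4 per group. The first group, K320E-TwinkleEpi (K320E below), expressed the K320E mutant of Twinkle, the helicase that unwinds mitochondrial DNA. The K14 promoter directed this expression. That promoter is active in basal keratinocytes, and which cells of the sample held the mutant was not measured. The control newborns had the genotype R26-K320E-TwinkleloxP/+, so they carried the K320E-Twinkle allele at R26 too. By its name that allele holds loxP, a recombination site. The K14 promoter may thus have acted through a recombinase, which was not examined here. Nothing in the labels ties an array to its own newborn or litter, so each p-value speaks of the spread between arrays, part of which may be technical.

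RNA or DNA in the cytosol is read by different proteins. RIG-I (Ddx58) and MDA5 (Ifih1) bind double-stranded RNA and signal through MAVS on the mitochondrial surface, while cGAS binds DNA, mitochondrial DNA included, and signals through STING. Both routes reach the kinase TBK1 and the factor IRF3, which turn on type I interferon; secreted interferon then acts through STAT2 and IRF9 to raise the effector genes, several sensors and IRF7. In the epidermis, keratinocytes, Langerhans cells and T cells can all take part.

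Twnk, the gene of Twinkle, matched the genotype label on all 8 arrays: it was 9.28, 9.09, 8.91 and 8.91 in K320E and 6.55, 6.95, 6.64 and 6.80 in controls (log2 intensity, replicates 1 to 4). It rose by 2.31 (SE 0.11, limma adjusted p = 0.00011). In 2 control arrays Xist and the Y-linked genes were both raised or both low, where the other arrays had one of them high. Among those others, K320E replicate 3 had the Y-linked genes high (mean 8.64, Xist 6.84), and the rest had Xist high (12.07 to 12.27). Sex was not a term in the fit. Control replicate 2 had Xist at 9.27 together with a Y-linked mean of 9.05, and control replicate 3 had Xist at 6.17 and a Y-linked mean of 4.75; values without both arrays are given below where a result rests on them. Keratinocyte markers were high in every array, with a mean of 11.29 to 11.51 in K320E and 11.18 to 11.30 in controls, and the spinous keratin Krt10 lay between 12.88 and 12.99. Of the 11 measured, 0 were called, and 4 (36.4%) had groups without overlap, against 9.25% of all genes. Named after their values were seen, these were Itgb4 (0.77), Itga6 (0.32) and Krt14 (0.27), higher in K320E, and Krt15 (-0.31), lower (log2 fold change, K320E minus control).

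No sensor, adaptor, factor or effector passed the test between the genotypes. With limma and an adjusted p under 0.05 over all genes, 0 of the 30 rose and 0 fell, against a background of 0.879% of all genes called, 0.685% as higher in K320E and 0.194% as lower. At an unadjusted p under 0.05 there were 8 of 30 (26.7%), 3 higher and 5 lower, against 14.8% of all genes. The groups did not overlap for 3 of 30 (10.0%), namely Tmem173, Irf7 and Mx1, against 9.25% of all genes; 1 of them lay higher in K320E (background 5.5%) and 2 lower (background 3.75%). Of the 30 fold changes, 16 were positive and 14 negative. Their median was 0.01, beside -0.0005 over all genes. The nearest to the threshold was Tmem173, with an adjusted p of 0.054 in limma.

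**Figure D1:**
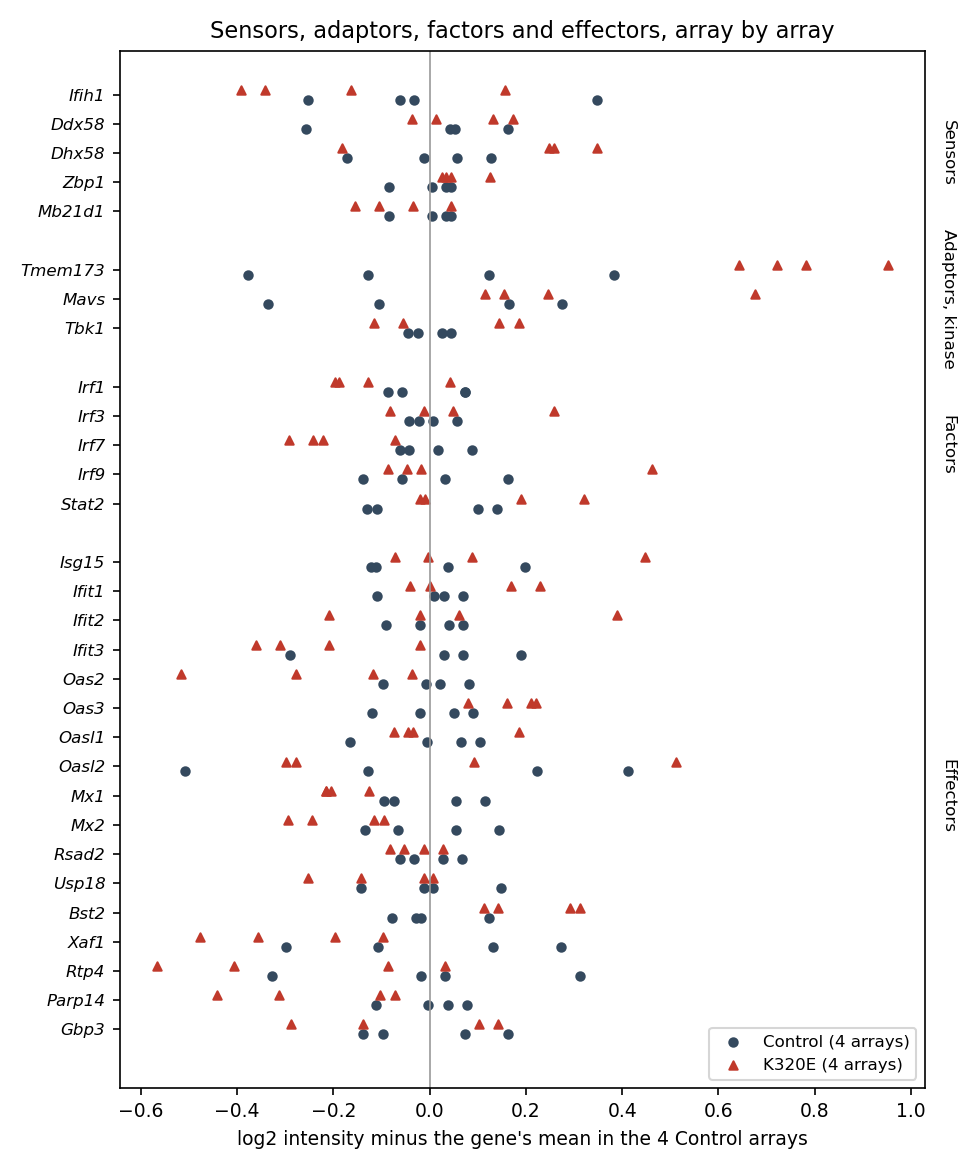
Log2 intensity of each measured gene on each array, minus that gene's mean in the 4 control arrays (triangles, K320E; circles, controls), with genes grouped by role. Tmem173 stands out to the right with all 4 K320E arrays, while for most other genes triangles and circles share the same range.

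The 5 sensors had small fold changes in both directions. Ddx58, the RNA helicase RIG-I, measured 6.92, 6.97, 7.13 and 7.09 in K320E and 7.01, 7.00, 7.12 and 6.70 in controls. Its groups overlapped, with control replicate 4 the lowest array, and the log2 fold change (K320E minus control) was 0.07 (SE 0.09), or -0.01 without that array and 0.18 without control replicates 2 and 3. Ifih1, the related helicase MDA5, measured 7.43, 7.48, 7.66 and 7.98 in K320E and 7.79, 8.17, 7.76 and 7.57 in controls. Its highest array was control replicate 2, and the fold change was -0.19 (SE 0.15), or -0.04 without control replicates 2 and 3. Dhx58, the gene of LGP2, which modulates both, measured 5.94, 5.51, 5.95 and 6.04 in K320E and 5.75, 5.82, 5.52 and 5.68 in controls. In K320E 3 arrays lay above all controls and replicate 2 lay below them all, and the fold change was 0.17 (SE 0.12).

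The sensors of DNA and of left-handed nucleic acid lay close to the controls. Mb21d1 (cGAS) measured 5.36, 5.29, 5.44 and 5.24 in K320E and 5.44, 5.40, 5.43 and 5.31 in controls, a fold change of -0.06 (SE 0.06). Its 95% interval ran from -0.20 to 0.07, so a rise in intensity of more than 1.05-fold lay outside it. Mb21d1 was among the lowest 33.3% of genes by level, and the deposited values hold no call of signal above background. The interval thus bounds the array intensity only. Zbp1, which binds left-handed nucleic acid and can start necroptosis, lay between 5.91 and 6.01 in K320E and between 5.80 and 5.93 in controls, with a fold change of 0.06 (SE 0.05). The lowest limma adjusted p among the 5 sensors was 0.572.

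The adaptors and the kinase had 3 positive fold changes of 3. Tmem173, the gene of STING, which sits in the endoplasmic reticulum and relays the signal of cGAS, measured 7.23, 7.09, 7.40 and 7.17 in K320E and 6.32, 6.57, 6.83 and 6.07 in controls. Every K320E array was above every control array, by at least 0.27. The means were 7.22 ± 0.13 and 6.45 ± 0.33 (SD, n = 4 each), a fold change of 0.78 (SE 0.15; 95% interval 0.44 to 1.12) or 1.72-fold. The limma adjusted p over all genes was 0.054, just above the threshold of 0.05, so Tmem173 was not called. The exact two-sided permutation test gave p = 0.0286, the smallest that 4 arrays against 4 allow. Of the 30 genes, each tested this way, Irf7 and Mx1 reached it too. The control arrays spread more widely than the K320E arrays. Control replicates 2 and 3 were the highest controls, at 6.57 and 6.83, so leaving either out must raise the fold change. Without control replicate 3 the fold change was 0.91, with a limma adjusted p of 0.021. Without control replicates 2 and 3 together it was 1.03, with a limma adjusted p of 0.016. Leaving out K320E replicate 3, the highest K320E array, gave 0.72 and a limma adjusted p of 0.163. In all, Tmem173 passed in 4 of 15 alternative settings, the other passes being an intensity trend with a robust prior and a test without the lowest 33.3% of genes (adjusted p = 0.027 in each).

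Markers of other cells were set beside Tmem173, since in a bulk sample more cells of a type and more RNA per cell cannot be told apart. The mean of 7 fibroblast markers was 7.10, 7.40, 7.58 and 7.00 in control replicates 1 to 4, the same order as Tmem173 in those arrays. In K320E it was 7.18, 7.32, 7.71 and 7.46, which was not the order of Tmem173, though replicate 3 was highest in both. The fibroblast mean overlapped between the groups, where Tmem173 did not overlap. Of the 7 fibroblast fold changes 5 were positive (median 0.15), and 0 were called. The 6 endothelial markers had a median of 0.05, with means of 5.55 to 6.04 in K320E and 5.58 to 5.69 in controls. The 6 skeletal muscle markers were all positive (median 0.91), with means of 6.82 to 8.37 in K320E and 6.26 to 7.35 in controls, and 0 were called. The marker of highest level was Dcn for fibroblasts (fold change -0.14), Cdh5 for endothelium (0.10) and Tnnt3 for muscle (1.03). The part of these cells in the Tmem173 level was not tested.

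Mavs, the adaptor of the RNA sensors, measured 7.70, 7.18, 7.27 and 7.14 in K320E and 7.19, 7.30, 6.92 and 6.69 in controls. K320E replicate 1 was its highest array and the rest overlapped, with a fold change of 0.29 (SE 0.16, limma adjusted p = 0.442). Tbk1, the kinase on which both routes meet, measured 9.02 to 9.32 in K320E and 9.09 to 9.18 in controls. Its fold change of 0.04 (SE 0.08) had a 95% interval from -0.13 to 0.21.

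The plots of single genes put Mb21d1 and Tbk1, on either side of STING in the pathway, next to Tmem173. All 3 were measured on the same arrays, and the difference between their fold changes was not tested.

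**Figure D2:**
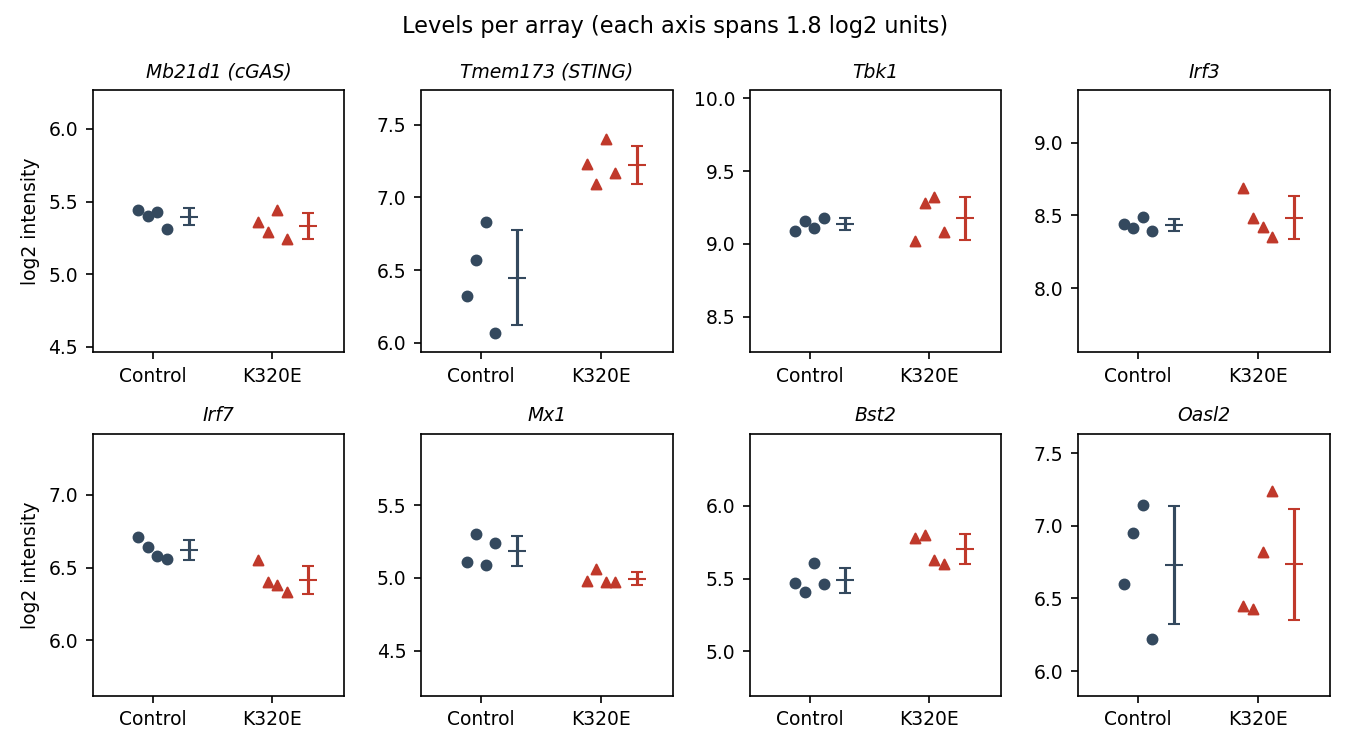
Log2 intensity per array of 8 genes, with the mean and SD of 4 arrays beside each group; every axis spans the same range of log2 units. Tmem173 separates the groups upward, Irf7 and Mx1 separate them downward by smaller amounts, and Oasl2 spreads widely within both groups.

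Among the transcription factors, Irf7 differed most. IRF7, which amplifies type I interferon and is itself raised by it, measured 6.55, 6.40, 6.38 and 6.33 in K320E and 6.71, 6.64, 6.58 and 6.56 in controls. All K320E arrays lay below all controls, but replicate 1 came within 0.01 of the lowest control. The fold change was -0.21 (SE 0.07), with a limma adjusted p of 0.189. Irf3, the factor that TBK1 phosphorylates, lay between 8.35 and 8.69 in K320E and between 8.39 and 8.49 in controls, a fold change of 0.05 (SE 0.08). Irf1, which also answers interferon gamma, had a fold change of -0.12 (SE 0.07).

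The subunits of the complex that receptors of type I interferon activate had small fold changes. Irf9 measured 7.74, 7.23, 7.19 and 7.26 in K320E and 7.14, 7.44, 7.31 and 7.22 in controls, so that 1 K320E array stood above all others and the remaining 7 overlapped. Its fold change was 0.08 (SE 0.12), but -0.05 without K320E replicate 1 and 0.17 without control replicates 2 and 3. Stat2 lay between 6.80 and 7.14 in K320E and between 6.69 and 6.96 in controls, with a fold change of 0.12 (SE 0.10), or 0.24 without those controls.

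The promoters of the effectors show the element that this complex binds, the interferon-stimulated response element. RefSeq windows of 300 bases (250 before to 50 after the start, build GRCm38.p6) were matched for 21 of the 30 genes, and GAAANNGAAA was searched on both strands, with overlapping matches allowed. It was present in 10 of 21 (47.6%), in 7 of 11 effectors, 2 of 3 sensors, 1 of 5 factors and 0 of 2 adaptors and kinases, beside 3.44% of all 32851 windows and 3.99% of 27025 genes, where a gene counted if any of its windows held a match. The gamma-activated sequence TTCNNNGAA, which reads the same on both strands, was present in 3 of 21 (14.3%), beside 8.3% of all windows and 9.55% of genes. The list was drawn up from genes known to answer interferon, so the first share describes the list.

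Stretches of 5 effector promoters and of Stat2 follow, to show how the element is spaced in genes whose transcripts can then be compared. Each runs 5′ to 3′ on the strand of its gene and ends before the start, with matched bases in capitals. The coordinates are chr4:156200855-156200916 (minus strand) for Isg15, chr19:34640765-34640833 (plus) for Ifit1, chr19:34583353-34583436 (plus) for Ifit3, chr12:26456543-26456592 (minus) for Rsad2, chr8:71537567-71537622 (minus) for Bst2 and chr10:128270256-128270305 (plus) for Stat2.
Isg15: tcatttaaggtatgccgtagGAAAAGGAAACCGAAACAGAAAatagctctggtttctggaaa
Ifit1: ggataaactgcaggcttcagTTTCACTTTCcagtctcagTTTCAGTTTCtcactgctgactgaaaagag
Ifit3: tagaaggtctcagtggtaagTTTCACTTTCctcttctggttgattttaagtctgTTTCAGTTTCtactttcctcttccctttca
Rsad2: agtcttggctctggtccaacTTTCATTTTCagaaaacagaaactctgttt
Bst2: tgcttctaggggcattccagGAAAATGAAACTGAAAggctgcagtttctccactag
Stat2: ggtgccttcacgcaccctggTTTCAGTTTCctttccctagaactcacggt

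The Isg15 stretch holds 3 overlapping matches between 78 and 57 bases before the start. Ifit1 holds 2, between 104 and 76 bases before it, and Ifit3 holds 2, between 156 and 113. Bst2 has 2 overlapping matches between 130 and 115 bases before its start, and Rsad2 has 1, from 120 to 111. Genes with a match did not move as a block: over the 10 of them the fold changes ran from -0.23 (Ifit3) to 0.22 (Bst2), with a median of 0.08, and over the 11 without one from -0.28 to 0.29, with a median of 0.01.

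The effectors that carry these elements showed the same lack of a common direction. Isg15, a ubiquitin-like protein joined to other proteins in infected cells, measured 5.64, 5.71, 6.16 and 5.80 in K320E and 5.60, 5.91, 5.75 and 5.59 in controls. K320E replicate 3 was its highest array, and the fold change was 0.12 (SE 0.12), or 0.23 without control replicates 2 and 3. Rsad2, the gene of viperin, lay between 5.32 and 5.43 in K320E and between 5.34 and 5.47 in controls, a fold change of -0.03 (SE 0.05). Bst2, the gene of tetherin, which holds budding virus at the cell surface, measured 5.78, 5.80, 5.63 and 5.60 in K320E and 5.47, 5.41, 5.61 and 5.46 in controls. Only control replicate 3 reached into the K320E range, and the fold change was 0.22 (SE 0.07, limma adjusted p = 0.199).

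The Ifit proteins bind foreign RNA ends, and their genes lie together on chromosome 19. Ifit3 measured 7.55, 7.70, 7.60 and 7.89 in K320E and 7.94, 8.10, 7.98 and 7.62 in controls. The groups overlapped through control replicate 4, and the fold change was -0.23 (SE 0.11). Ifit1 and Ifit2 had fold changes of 0.09 (SE 0.08) and 0.05 (SE 0.12). Ifit3 has a near-identical copy, Ifit3b, so its own value is uncertain. Without control replicates 2 and 3 the Ifit3 fold change was -0.10, and Ifit2 had -0.06 without K320E replicate 3.

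Oligoadenylate synthetases make the activator of RNase L, and their fold changes differed in sign. Oas2 measured 5.96, 5.72, 5.88 and 5.48 in K320E and 5.99, 6.08, 6.02 and 5.90 in controls, a fold change of -0.24 (SE 0.10). Oas3 measured 6.15, 6.14, 6.01 and 6.09 in K320E and 5.81, 6.02, 5.98 and 5.91 in controls, a fold change of 0.17 (SE 0.06). For each gene 1 K320E array reached into the range of the controls, and the limma adjusted p was 0.316 and 0.27. The relatives Oasl1 and Oasl2 both had a fold change of 0.01. Without control replicates 2 and 3 they had -0.04 and 0.33. Oasl2 varied most within the groups, from 6.43 to 7.24 in K320E and from 6.22 to 7.14 in controls.

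The Mx GTPases, which trap viral particles, had negative fold changes. Mx1 measured 4.98, 5.06, 4.97 and 4.97 in K320E and 5.11, 5.30, 5.09 and 5.24 in controls, groups kept apart by 0.02. Its fold change was -0.19 (SE 0.06), with a limma adjusted p of 0.214. Mx2 measured 5.45, 5.27, 5.32 and 5.47 in K320E and 5.62, 5.71, 5.43 and 5.50 in controls, with overlap and a fold change of -0.19 (SE 0.08). C57BL/6 mice carry a defective Mx1 allele, and the deposited values hold no call of which probe sets are above background.

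The other effectors had fold changes between -0.28 and -0.05. Xaf1, a partner of the caspase inhibitor XIAP, measured 6.28, 6.56, 6.40 and 6.66 in K320E and 6.46, 6.89, 7.03 and 6.65 in controls, a fold change of -0.28 (SE 0.13) with overlapping groups. Parp14, an ADP-ribosyltransferase, measured 5.70, 6.07, 5.83 and 6.04 in K320E and 6.03, 6.14, 6.22 and 6.18 in controls, a fold change of -0.23 (SE 0.09). Rtp4, a chaperone of receptors at the membrane, had -0.25 (SE 0.16), Usp18, the protease that removes ISG15, -0.10 (SE 0.08) and the GTPase gene Gbp3 -0.05 (SE 0.11). In the plot of fold changes, a 2-fold change in either direction lay outside the 95% interval of 29 of the 30 genes, the exception being Tmem173. These intervals are of array intensity, and 23 of the 30 genes lay above the lowest 33.3% of genes by level. Without control replicates 2 and 3 the fold change was -0.08 for Xaf1, -0.08 for Rtp4 and 0.07 for Gbp3, whose sign turned. The widest bounds of the effectors were -0.62 (Rtp4) and 0.53 (Oasl2).

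**Figure D3:**
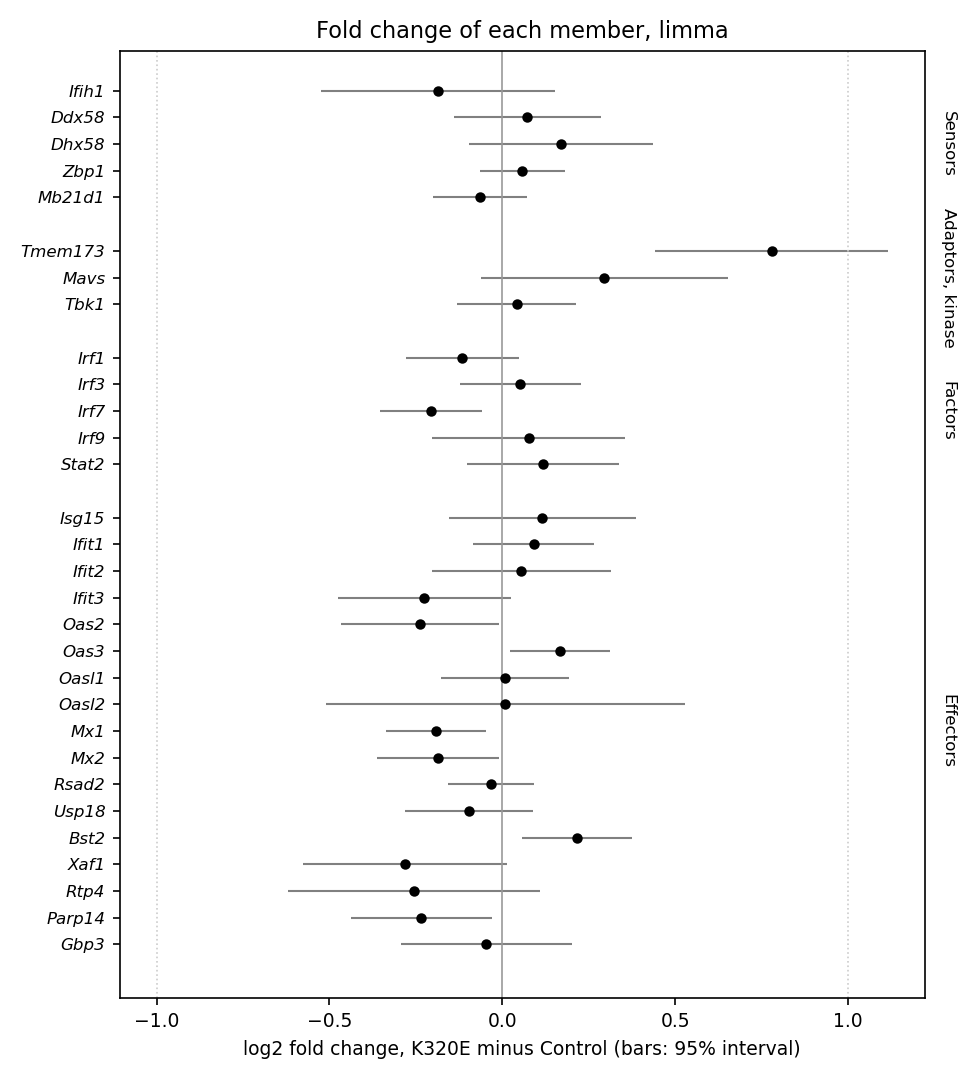
Log2 fold change of each measured gene, K320E minus control, with limma's 95% interval; dotted lines mark a 2-fold change in each direction. The interval of Tmem173, from 0.44 to 1.12, is the 1 interval that crosses a dotted line, and those of the 17 effectors lie between -0.62 and 0.53.

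Sensors were compared with effectors within each array. The mean of the 5 sensors was 6.31, 6.24, 6.44 and 6.46 in K320E and 6.36, 6.46, 6.35 and 6.23 in controls, a difference between the groups of 0.01. The mean of the 17 effectors was 5.88, 5.95, 6.01 and 6.00 in K320E and 5.96, 6.12, 6.07 and 5.96 in controls, a difference of -0.07. Both means overlapped between the groups.

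Sensors minus effectors came to 0.432, 0.285, 0.431 and 0.459 in K320E and 0.401, 0.347, 0.280 and 0.274 in controls. The group means were 0.402 ± 0.079 and 0.326 ± 0.060 (SD, n = 4 each), so the K320E mean was higher by 0.076 (SE 0.050). In K320E 3 arrays lay above all controls, and replicate 2 lay among the lowest controls. Without control replicates 2 and 3 the sensor mean differed by 0.07, the effector mean by 0.003 and their difference by 0.064. No test was made on these means, because the genes were chosen with earlier results of these data known.

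**Figure D4:**
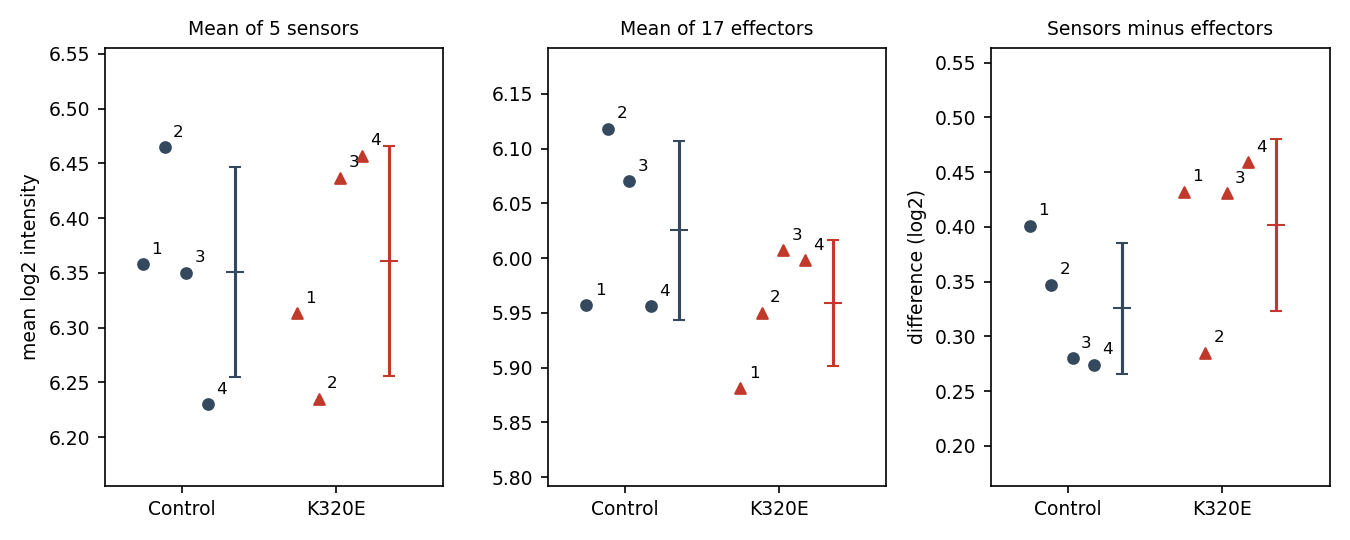
Mean log2 intensity of the 5 sensors (left) and the 17 effectors (middle), and the sensor mean minus the effector mean (right), for each array, labelled by replicate number, with group mean and SD. Both means overlap between the groups, and in the right panel 3 K320E arrays (0.431 to 0.459) lie above the 4 controls while replicate 2 (0.285) does not.

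Single arrays often set the extremes among the effectors. Control replicate 2 was the highest of the 8 arrays for 8 of the 17 effectors, among them Ifit3, Mx1 and Rtp4, and K320E replicate 1 was the lowest for 5. Control replicate 2 also had the highest mean of the 7 pan-leukocyte markers, 7.52. That mean was 7.03 to 7.33 in K320E and 7.25 to 7.52 in controls.

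Markers of leukocytes were set beside the effectors in the same way. Of 6 Langerhans and dendritic cell markers 2 fell, H2-Aa by 1.05 (limma adjusted p = 0.0021) and H2-Ab1 by 0.98 (limma adjusted p = 0.013), both subunits of class II histocompatibility molecules. The rest of that list was not called, with fold changes of -0.19 for H2-Eb1, -0.07 for Cd207, -0.03 for Itgax and 0.003 for Ciita. The mean of the list was 5.96 to 6.06 in K320E and 6.34 to 6.45 in controls, and H2-Aa and H2-Ab1 had by far the largest differences in it. Over all genes 0.685% were called as higher in K320E and 0.194% as lower. Of 6 T cell markers 1 rose, Thy1, which fibroblasts also carry, by 0.69 (limma adjusted p = 0.0495), while Cd3d and Cd3g had fold changes of -0.75 and -1.19, were not called and were picked after their values were seen. In 15 alternative settings H2-Aa passed in 15, H2-Ab1 in 13 (not without K320E replicate 3, nor without control replicates 2 and 3; highest adjusted p 0.055) and Thy1 in 6 (adjusted p 0.016 to 0.147). Of those that leave out 1 array, Thy1 passed only without control replicate 3, its highest control. The T cell mean was 6.26 to 6.63 in K320E and 6.54 to 6.81 in controls. Macrophage markers had a median of -0.10 (9 genes), and the highest of them, Cd68, had 0.51 without overlap. Neutrophil markers had a median of 0.07 (9 genes), with means of 5.57 to 5.62 in K320E and 5.28 to 5.54 in controls. The highest of them, the chemokine receptor gene Cxcr2, had 1.32 (limma adjusted p = 0.147), with groups kept apart by 0.01. Cxcr2 had by far the largest fold change of that list, and the rest ran from -0.02 (Elane) to 0.20 (Ngp). The medians were -0.40 for 5 melanocyte markers (led in level by Mlana, -0.40) and -0.11 for 3 plasmacytoid dendritic cell markers (led by Ccr9, -0.11), and Cd53 led the pan-leukocyte list with -0.16. In these 5 lists 0 genes were called. The part of these cells in the levels of the effectors, of Irf7 or of Mx1 was not tested.

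The rest of the pathway was taken from 5 lists with 106 entries, of which 91 were measured. With limma 0 of the 91 rose and 0 fell; 18 (19.8%) had an unadjusted p under 0.05, beside the 14.8% of all genes, and 7 (7.69%) had groups without overlap, beside 9.25%. Under at least 1 of 15 alternative settings 6 of the 91 passed, and these are named below.

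Of 10 interferon ligands 0 were called, with a median of -0.04. The gene furthest from 0 was Ifnk, the type I interferon of keratinocytes, at 7.36, 7.14, 7.09 and 6.99 in K320E and 7.60, 7.99, 7.73 and 7.49 in controls. All K320E arrays lay below all controls, with a fold change of -0.56 (SE 0.12, limma adjusted p = 0.069). Ifnb1, the interferon that IRF3 and IRF7 induce, lay between 4.61 and 4.75 in K320E and between 4.60 and 4.79 in controls. It was among the lowest 33.3% of genes by level. Ifnk passed under quantile normalisation and without the lowest 33.3% of genes, with 0.041 the lowest adjusted p.

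Receptors and JAK-STAT genes had a median of 0.07 over 10 genes, 0 called. The largest fold change was 0.23 (SE 0.09), in Il10rb, a shared chain of the interferon lambda receptor. Ifnar1 and Ifnar2, the chains of the type I interferon receptor, had -0.01 (SE 0.07) and -0.06 (SE 0.10).

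Of 15 other sensors and adaptors 0 were called, with a median of 0.04. Ifi204, a DNA-binding protein of the p200 family reported to act beside cGAS, measured 7.50, 7.78, 7.99 and 8.29 in K320E and 6.56, 7.29, 7.11 and 6.54 in controls. The groups did not overlap, and the fold change was 1.02 (SE 0.21, limma adjusted p = 0.067). Ripk3, the necroptosis kinase that ZBP1 recruits, was picked after its values were seen: it lay between 6.52 and 6.84 in K320E and between 6.07 and 6.35 in controls, with a fold change of 0.47 (SE 0.09, limma adjusted p = 0.052). Each passed in 3 of 15 alternatives, Ripk3 among them when K320E replicate 2 was left out (lowest adjusted p 0.034). For Ifi204 they included leaving out control replicates 2 and 3, its highest controls.

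Genes of nucleic acid clearance and of enzymes on double-stranded RNA had a median of 0.11 over 9 genes, 0 called. Ttc37, a subunit of the cytosolic SKI complex that feeds RNA to the exosome, had the largest fold change, 0.35 (SE 0.11, limma adjusted p = 0.197). It passed in 1 alternative, without control replicates 2 and 3, its highest controls. There the fold change was 0.54, with a limma adjusted p of 0.040.

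Of 47 further interferon-stimulated genes 18 had positive and 29 negative fold changes, with a median of -0.03 and 0 called. Ifi202b, another p200 gene, was furthest from 0: it measured 9.82, 9.99, 10.38 and 9.98 in K320E and 8.63, 9.06, 9.48 and 8.26 in controls, without overlap. Its fold change was 1.19 (SE 0.24, limma adjusted p = 0.064). It passed in 5 of 15 alternatives, among them leaving out control replicate 3, its highest control. Of 5 p200 genes in these lists, set together after their values were seen, Ifi204, Ifi202b and Ifi209 (0.51, SE 0.33) had positive fold changes and Aim2 (-0.20, SE 0.08) and Mndal (-0.34, SE 0.10) negative ones. Members of the family share sequence, so single values are uncertain. Ifitm3, a membrane protein that blocks viral entry and was also picked after its values were seen, had 0.52 (SE 0.13, limma adjusted p = 0.121). It passed without control replicates 2 and 3, its highest controls.

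**Figure D5:**
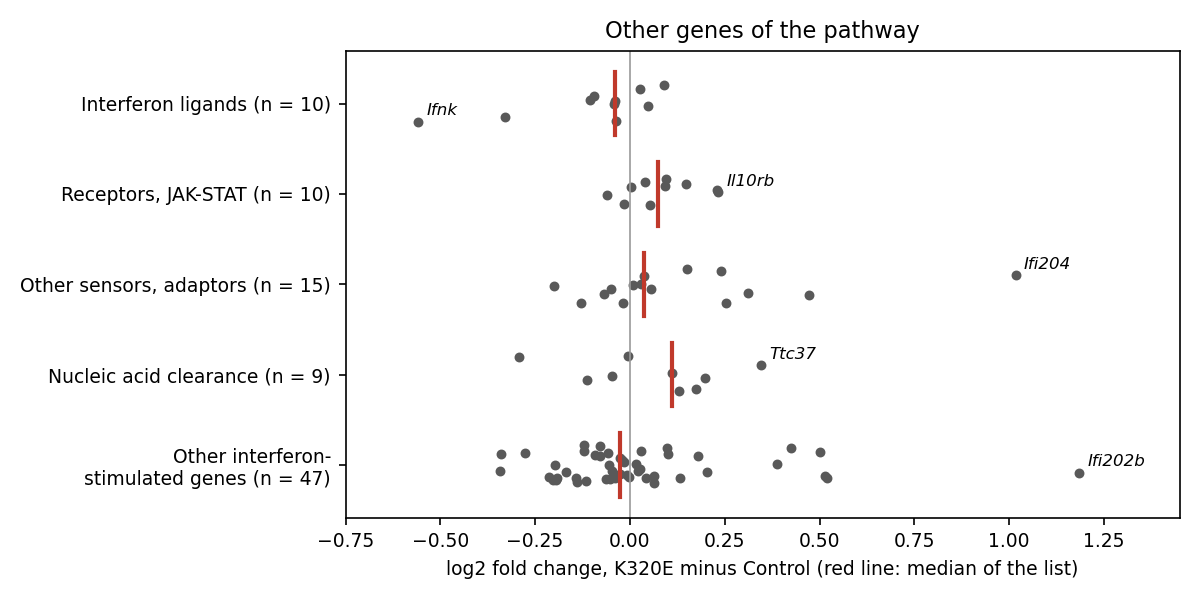
Log2 fold change, K320E minus control, of each of the 91 measured genes in 5 lists of the wider pathway (points), with the median of each list (red line). The medians lie between -0.04 and 0.11; the gene furthest from 0 is named in each list, and Ifi204 and Ifi202b lie apart on the right.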

How the data were processed

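The deposited table holds the authors' log2 intensities for 33793 probe sets on 8 arrays, between 4.31 and 13.1, with array medians from 6.06 to 6.11; their background correction and normalisation: not given in the sources used here. Per the labels, RNA came from a Maxwell 16 LEV simplyRNA Tissue Kit and was amplified with Applause WT-Amp Plus ST. GEO's platform annotation paired 23521 probe sets with 1 gene and 1814 with several, and left 8458 unnamed. A gene with several probe sets took the one of highest mean; each of the 30 measured genes had a single one.

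The genotypes were compared in limma 3.58.1 (R 4.3.3), by lmFit and eBayes on all 8 arrays with genotype as the only term. Benjamini-Hochberg adjustment ran over 22180 genes, with a threshold of 0.05, and the fit was tested on simulated data. The genes, roles and lists were chosen with earlier results of these data known. The rule for names took every measured gene of the list, Twnk, called genes of each pathway list or else the one furthest from 0, and called genes and the one of highest level in each marker list; other genes were picked after their values were seen. The alternatives were quantile normalisation, subtraction of array medians, averaging of probe sets, a filter on dim genes, an intensity trend with a robust prior, the replicate number as a block, and arrays left out. Precision is limited by having 4 arrays in each group.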

Additional observations from a re-analysis of the deposited data

Results flagged for a closer look

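An array that stood far from the other 3 of its group was found in 4 of 66 groups examined (33 measures in each genotype), where chance gives about 1 in 20. Irf9 was at 7.74 in K320E replicate 1, with the next K320E array at 7.26. Oasl1 was at 6.03 in K320E replicate 3, with the next at 5.81. Mx1 was at 5.06 in K320E replicate 2, with the next at 4.98. Sensors minus effectors was 0.285 in K320E replicate 2, with the next at 0.431; without that array the K320E mean was higher by 0.115 in place of 0.076.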

How the results depend on the processing

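Of 30 genes, 22 kept the sign of their fold change in every one of the 15 alternatives that gave a value, and the 8 that did not (Ddx58, Tbk1, Irf3, Irf9, Ifit2, Oasl1, Oasl2 and Gbp3) were never called; 1, Tmem173, was called in some. The count of called genes among the 30, 0 in the fit reported, was 1 without control replicates 2 and 3 together, 1 with an intensity trend and a robust prior, 1 without the lowest 33.3% of genes, and 0 to 1 when single arrays were left out. The filter tests fewer genes (14787) and keeps 23 of the 30. Groups did not overlap for 9 of 30 without control replicates 2 and 3 and for 4 to 5 without single arrays (3 in the fit reported), where fewer arrays make overlap rarer. The share over all genes was not computed in those settings, so these counts cannot be set against the 9.25% found with all 8 arrays. Of the 91 pathway genes, 4 were called without control replicates 2 and 3, 3 with the trend and robust prior, 4 without the dimmest genes, 1 under quantile normalisation, 1 with the replicate block, and 0 to 1 without single arrays. Over all genes the count of 195 went to 53 to 173 without single arrays, and to 114 with the replicate block. After each gene's group mean was subtracted, same-numbered arrays correlated at 0.051, -0.065, 0.082 and 0.137 over all genes. By this measure 2 of 4 K320E arrays were closest to the control of their own number. The numbers were therefore not taken to pair the arrays. In all 15, the sensor mean, the effector mean, their difference and the median over the 30 genes moved by less than the SD between arrays pooled over both groups, but not all kept their sign. The sensor difference of 0.010 was -0.030 without control replicate 4, -0.015 without K320E replicate 3 and -0.022 without K320E replicate 4. The effector difference of -0.066 was 0.003 without control replicates 2 and 3, and the median, 0.008, ran from -0.041 to 0.028 without single arrays and was -0.004 under quantile normalisation.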
